A study of Mus musculus with 9 samples.

Results

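Integrins are the heterodimeric receptors by which cells hold on to the extracellular matrix and to one another, and laminins are the trimeric glycoproteins that basement membranes are built from. The integrin and laminin genes of whole NB9464 tumors were described here, in 3 vehicle tumors, 3 tumors given R788 + anti-PDL1 and 3 tumors given Rad + R788 + anti-PDL1. Members were chosen by symbol alone, as every Itga, Itgb, Lama, Lamb and Lamc chain in the table, which gave 37 of 54429 symbols. They were 26 integrins and 11 laminins, and the rule itself uses no measured value, although earlier results of these data were known when it was set. The integrins were divided by background knowledge into 7 leukocyte chains and 19 matrix chains.

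NB9464 is a mouse neuroblastoma line with amplified MYCN. The labels state that the cells were placed under the skin of C57BL/6 WT mice, young animals per the methods, and that treatment began at a tumor volume of 250 mm3. R788 (fostamatinib), a prodrug of a Syk kinase inhibitor, was given at 50 mg/kg 5 times a week, anti-PDL1 is a checkpoint-blocking antibody, and radiation was 10 Gy. Tumors of single agents were not analysed here, so neither the parts of the drug pair nor radiation alone can be told apart. The vehicle mice carried the same tumor in the same WT host, and no group had an engineered allele in the host. All tumors came from a single line, so the replicates of a group do not sample different tumor lines. Whole tumor RNA mixes tumor cells with host stroma and leukocytes. Among noradrenergic neuroblast markers, Th had no count in any library, and Dbh, Phox2a and Chga stayed at or below 0.221 CPM. Hand2, another such marker, ranged from 324 to 866 CPM. These 4 defining transcripts of the labelled neuroblastoma were thus at or near 0 in all groups.

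Values are CPM, counts scaled to the library total, after TMM normalization, which scales each library by a factor that evens out its composition. Library totals ranged from 18276683 to 23397886 counts, and 3 counts, the most that a count of 0 allows, were worth 0.115 to 0.221 CPM. These limits cover counting error only. Irradiated replicate 1 stood apart from the other libraries. Its TMM factor was 0.743 against 0.975 to 1.12, the mitochondrial share of its counts was 1.97% where the others had 3.48% to 5.71%, and its log2(CPM + 1) correlated with the other 8 at r of 0.886 to 0.928 across genes. Differences that involve the irradiated tumors are also given without it wherever that changed a call or moved the value markedly. Differences are log2 fold changes ± SE from the edgeR quasi-likelihood test, with n = 3 per group. Benjamini-Hochberg adjustment ran over all 15931 genes tested, and a gene was called at an adjusted p below 0.05. All 9 libraries shared 1 fit, so each SE also takes in the spread of the group outside its comparison.

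An integrin pairs an alpha with a beta chain, and the pair sets the ligand. Leukocyte integrins share the beta chains Itgb2 (CD18) or Itgb7 and bind mainly to counter-receptors on other cells, such as ICAM1 and VCAM1, whereas the matrix integrins centre on Itgb1 and the alpha v chain Itgav and bind collagen, laminin and RGD-bearing proteins such as fibronectin and vitronectin. Laminins combine an alpha, a beta and a gamma chain. The alpha 5 and alpha 4 chains are the usual alpha chains of vessel basement membrane, alpha 2 is that of muscle and nerve, and Lama3 and Lamb3 encode chains of the laminin that anchors epithelium through the integrin alpha 6 beta 4 (Itga6, Itgb4). Itgam (CD11b) and Itgax (CD11c) mark myeloid cells, including the macrophages that are common in neuroblastoma.

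Promoter sequence was found in the RefSeq table (GRCm38.p6) for 23 of the 37 members. The 250 bases before the start are printed for 4 of them, a leukocyte chain (Itgam), a collagen receptor (Itga1) and the laminin alpha chains with the largest difference under R788 + anti-PDL1 (Lama2) and with the highest level (Lama5). Each is read 5′ to 3′ on the gene's strand, and capitals mark GAGGAA, the core of the binding motif of the myeloid factor PU.1, or its complement.
Itgam, chr7:128062390-128062639 on the plus strand, 2 matches: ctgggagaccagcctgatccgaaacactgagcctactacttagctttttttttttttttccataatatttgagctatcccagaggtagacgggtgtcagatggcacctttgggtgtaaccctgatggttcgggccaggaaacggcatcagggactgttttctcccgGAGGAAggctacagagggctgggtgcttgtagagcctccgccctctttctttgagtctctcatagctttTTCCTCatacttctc
Itga1, chr13:115101965-115102214 on the minus strand, no match: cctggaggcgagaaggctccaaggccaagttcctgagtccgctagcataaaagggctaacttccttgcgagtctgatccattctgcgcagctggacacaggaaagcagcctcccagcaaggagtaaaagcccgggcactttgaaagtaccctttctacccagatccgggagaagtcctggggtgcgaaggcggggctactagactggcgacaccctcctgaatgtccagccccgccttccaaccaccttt
Lama2, chr10:27616943-27617192 on the minus strand, 1 match: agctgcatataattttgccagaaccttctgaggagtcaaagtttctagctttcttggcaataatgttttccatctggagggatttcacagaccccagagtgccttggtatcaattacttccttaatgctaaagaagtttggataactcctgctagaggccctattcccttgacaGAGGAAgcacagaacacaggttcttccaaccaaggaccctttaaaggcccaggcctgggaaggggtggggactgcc
Lama5, chr2:180225860-180226109 on the minus strand, 1 match: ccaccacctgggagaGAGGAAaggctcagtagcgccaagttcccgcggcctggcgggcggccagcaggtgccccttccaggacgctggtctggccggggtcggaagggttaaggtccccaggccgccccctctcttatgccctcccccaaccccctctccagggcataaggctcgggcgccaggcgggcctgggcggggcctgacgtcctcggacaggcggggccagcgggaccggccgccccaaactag

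By the GENCODE M21 gene models, the windows of Itgam, Itga1 and Lama5 lie directly before the gene, and that of Lama2 lies in non-exonic sequence inside its longest gene model. The letters GAGGAA, on either strand, occurred in 23.1% of the 27025 promoters in the table, in 1 of 3 leukocyte integrin promoters, in 5 of 15 matrix integrin promoters and in all 5 laminin promoters that could be searched (Lama2, Lama5, Lamb1, Lamb2 and Lamb3). The GC box GGGCGG occurred in 32.9% of all promoters, with 4 matches in Lama5. The AP-1 site TGANTCA (6.87% of all promoters) occurred among the members in Itgax only, and the E-box CACGTG (6.05%) in none of the 23. None of these motifs contains another. These are matches of letters and say nothing of binding. Itgb4, Itgb2, Itgb3, Lama4, Lamc1 and 9 other members had no entry.

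In vehicle tumors the matrix chains far exceeded the leukocyte chains. Compared per kb of the longest coding transcript, Itgb1 was the highest member at 77.5 ± 4.23 CPM per kb (SD, n = 3), followed by Itgb5, an alpha v partner that binds vitronectin, at 38.7 ± 7.79. Then came 3 laminin chains, Lamc1 at 34.2 ± 2.17 CPM per kb, Lamb1 at 29.1 ± 0.64 and Lamb2 at 19.0 ± 5.64, and next Lama5 at 17.5 ± 4.72. Itgb3, the other main alpha v partner, stood at 16.0 ± 1.77 CPM per kb, Itga5, the fibronectin receptor alpha chain, at 14.5 ± 0.72, and Itga6 at 12.6 ± 3.86. Itgb5 and Lamc1, and from Lamb2 down to Itga6 all neighbours in this order, differed by less than the larger of their SDs. The highest leukocyte chain was Itgb2 at 5.35 ± 0.80 CPM per kb, with Itgam at 2.82 ± 1.26. With the median transcript length in place of the longest, Lamb2, Itgb2 and Itgav moved up the order, because the annotation lists short coding fragments for them.

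Gene by gene, the most abundant integrin showed no clear difference between the groups. Itgb1, the common beta chain of the collagen, laminin and fibronectin receptors (chr8:128685654-128733200), had 314, 284 and 289 CPM in vehicle, 294, 418 and 312 in R788 + anti-PDL1, and 196, 344 and 357 in the irradiated tumors. The groups overlapped, and irradiated replicate 1 was the lowest of all libraries. Itgb1 differed from vehicle by 0.21 ± 0.26 (log2) under R788 + anti-PDL1 and by 0.02 ± 0.26 under Rad + R788 + anti-PDL1, adjusted p = 0.824 and 0.976 by edgeR. With single libraries left out, the second difference ran from -0.13, without irradiated replicate 3, to 0.28. It changed sign in 6 of 15 alternatives, so no direction can be given.

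**Figure D1:**
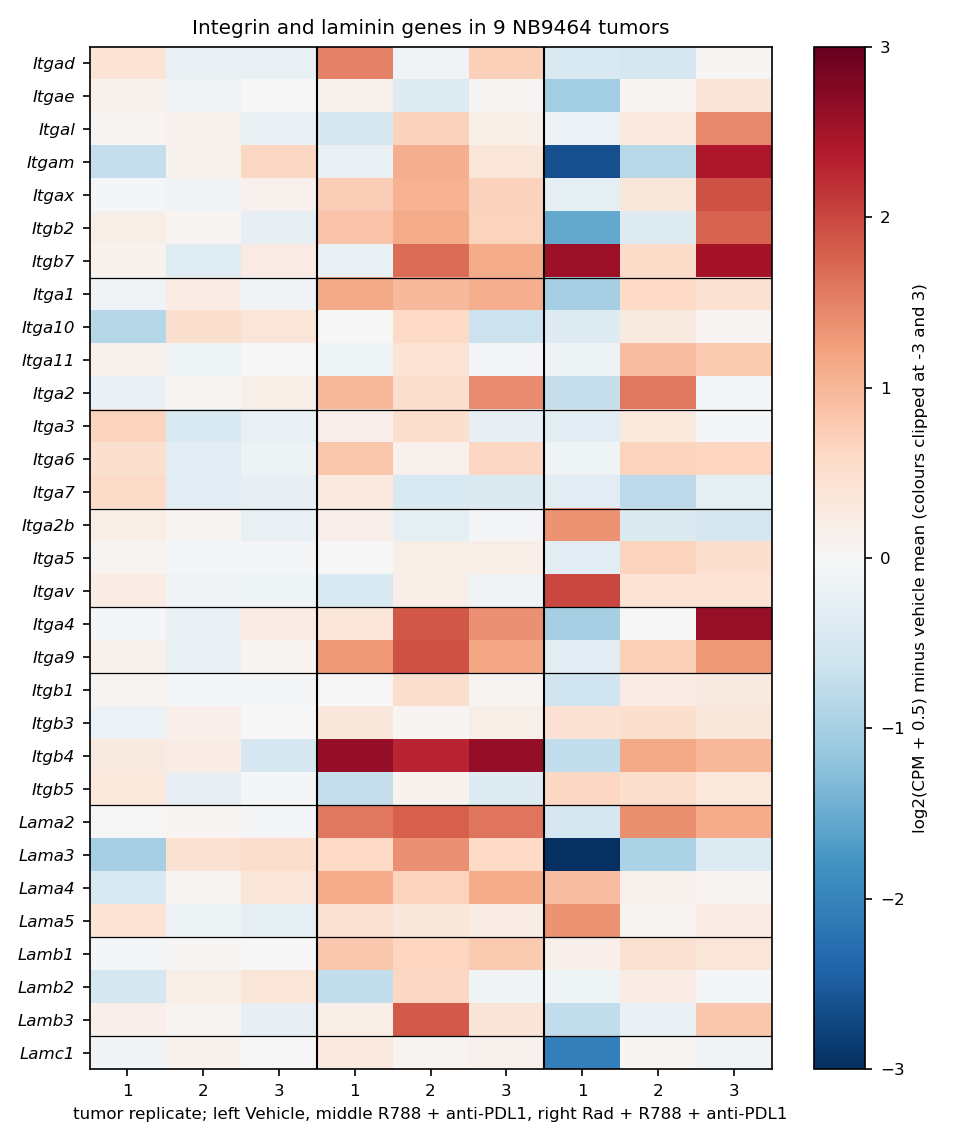
Level of tested integrin and laminin genes (rows, by class) in each of the 9 tumors (columns), as log2(CPM + 0.5) minus the mean of the 3 vehicle tumors. Itgb4, Lama2 and Itga9 are above vehicle in all 3 R788 + anti-PDL1 tumors. Irradiated tumor 1 differs from irradiated tumors 2 and 3 in Lamc1, Lama5 and Itgav. Irradiated tumor 3 is above irradiated tumors 1 and 2 in the leukocyte chains Itgam and Itgb2.

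The first comparison set R788 + anti-PDL1 beside vehicle, and asked how the drug pair changed the tumors. The integrin beta 4 chain rose, and several laminin chains were higher in each of the 3 treated tumors than in any vehicle tumor, without passing the adjusted threshold. Of the 32 members tested, 25 were higher, with a median log2 fold change of 0.48 against -0.02 over all genes tested. With edgeR 1 member was called (Itgb4), against 0.678% of all genes. At an unadjusted p below 0.05, 7 members were higher, against 5.96% of all genes, and 0 were lower, against 5.70%. The groups did not overlap for 13 members that were higher, against 13.6% of all genes, and for 0 that were lower, against 16.5%.

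Itgb4 (chr11:115974709-116008412), the laminin receptor chain of hemidesmosomes, had 15.2, 14.8 and 8.76 CPM in vehicle and 80.1, 63.5 and 80.2 CPM in R788 + anti-PDL1. Every treated tumor was far above every vehicle tumor. The rise was 2.53 ± 0.46 (log2), or 5.78-fold, with an adjusted p of 0.0475 by edgeR. The call was lost when any single library of the 6 was left out, with adjusted p from 0.084 to 0.258 and log2 fold changes from 2.31 to 2.69. Those fits called 0 to 75 genes in all, against 108 with all 9 libraries. A gene on the opposite strand, B230344G16Rik, had 5 to 22 counts against 99 to 1960 for Itgb4, and the strandedness of the libraries is not given in the sources used here.

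Itga6, the alpha partner of beta 4, had 73.4, 42.6 and 47.2 CPM in vehicle and 95.3, 58.2 and 82.1 CPM in R788 + anti-PDL1, with overlapping groups and a difference of 0.53 ± 0.30 (adjusted p = 0.576 by edgeR). Per kb, the ratio of Itgb4 to Itga6 was 0.143, 0.241 and 0.129 in vehicle, 0.584, 0.758 and 0.678 in R788 + anti-PDL1, and 0.104, 0.230 and 0.214 in the irradiated tumors. The ratio in the drug pair tumors stood above that of all 6 others. Basal keratinocytes and Schwann cells also carry beta 4. The sum of 5 keratinocyte markers was 7.94 to 8.60 CPM in vehicle and 2.16, 64.1 and 23.9 CPM in R788 + anti-PDL1. Krt14 was at 0 in all 3 of the latter tumors. The 2 of these markers that were tested, Krt5 and Trp63, differed from vehicle by 2.53 ± 0.91 and -1.39 ± 0.85 under R788 + anti-PDL1. Both had overlapping groups, with adjusted p = 0.308 and 0.610 by edgeR. In the irradiated tumors the sum was 47.4 to 75.7 CPM. The sum of 6 Schwann cell markers was 7.99 to 19.5 CPM in vehicle, 12.7 to 20.1 under the drug pair and 5.82 to 13.4 after radiation, and their part in the Itgb4 result was not tested. In whole tumor RNA, more cells of a type and more RNA per cell cannot be told apart.

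Among the other matrix integrins, the alpha 9 chain Itga9 and the collagen receptor chain Itga1 were higher. Itga9, which pairs with beta 1 and binds tenascin C and VCAM1 (chr9:118606690-118901003), had 3.53, 2.69 and 3.39 CPM in vehicle and 8.54, 13.3 and 7.78 CPM in R788 + anti-PDL1. Itga1 (chr13:114953096-115101964) had 5.24, 6.64 and 5.20 CPM in vehicle and 13.0, 11.6 and 12.7 CPM in treated tumors. For both genes the lowest treated tumor was above the highest vehicle tumor. The differences were 1.62 ± 0.46 for Itga9 and 1.13 ± 0.41 for Itga1, with adjusted p = 0.171 and 0.320 by edgeR, so neither was called. Fitted on the 6 libraries of this comparison alone, both were called by edgeR, in a fit that called 3.84% of all genes. Pelo lies within the Itga1 locus on the same strand and had 230 to 491 counts against 35 to 310 for Itga1, and Gm2415, opposite Itga9, had 59 to 132 counts against 33 to 349, so both levels are uncertain to that extent.

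The remaining matrix chains showed smaller or less even differences. Of 16 matrix integrins tested, 11 were higher and 5 lower, with a median of 0.16. The groups did not overlap for 5 that were higher (Itga1, Itga2, Itga4, Itga9 and Itgb4), against 13.6% of all genes. None was lower without overlap, against 16.5%. Itgb3 differed by 0.19 ± 0.17 and Itgb5 by -0.32 ± 0.25, with adjusted p = 0.747 and 0.707 by edgeR. The RGD-binding alpha chains Itga5, Itgav and Itga2b lay between -0.10 and 0.12. The laminin-binding alpha chains Itga3 and Itga7 differed by 0.08 ± 0.34 and -0.23 ± 0.37, with overlapping groups.

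Of 9 laminins tested, 6 were higher with no overlap between the groups, against 13.6% of all genes. Their median log2 fold change was 0.79, with 8 higher and 1 lower, and 0 were called by edgeR. At an unadjusted p below 0.05, 4 were higher, against 5.96% of all genes. Summed over the 11 chains, laminin RNA was 802, 822 and 812 CPM in vehicle, 1117, 1113 and 1078 CPM under R788 + anti-PDL1 and 946, 939 and 889 CPM after Rad + R788 + anti-PDL1. The tumors of the 3 groups did not overlap in this sum. The sum hides an unlike makeup of irradiated tumor 1. Its alpha chains summed to 599 CPM and its gamma chains to 63.8 CPM. Irradiated tumor 2 had 313 and 272 CPM, and irradiated tumor 3 had 329 and 243 CPM.

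Lamb1, the beta chain of most vessel and stromal laminins (chr12:31265234-31329644), had 164, 172 and 169 CPM in vehicle and 296, 262 and 288 CPM under R788 + anti-PDL1. The vehicle tumors lay close together and every treated tumor was above them. The difference was 0.75 ± 0.17, or 1.68-fold, with an adjusted p of 0.0879 by edgeR. Lama2, the alpha chain known from congenital muscular dystrophy (chr10:26980036-27619758), had 19.9, 20.8 and 19.2 CPM in vehicle and 60.2, 70.4 and 62.1 CPM in treated tumors, again with no overlap. It differed by 1.69 ± 0.41, or 3.22-fold, with an adjusted p of 0.110 by edgeR. DESeq2 called both, with Itgb4 and Itga9, where it called 4.86% of all genes. The edgeR fit on the 6 libraries of this comparison alone also called Lamb1 and Lama2, where it called 3.84% of all genes.

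Lama4, the alpha chain of endothelial and fat basement membrane (chr10:38965515-39110188), had 32.8, 48.6 and 59.0 CPM in vehicle and 99.4, 72.7 and 99.0 CPM in treated tumors, a difference of 0.95 ± 0.30 (adjusted p = 0.241 by edgeR). The epithelial chains Lama3 and Lamb3 were 0.79 ± 0.93 and 1.33 ± 0.73 higher, without overlap and with adjusted p = 0.814 and 0.557 by edgeR.

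The other abundant laminin chains differed little. Lamc1, the gamma chain of most laminins, had 247, 279 and 257 CPM in vehicle and 318, 276 and 286 CPM under R788 + anti-PDL1, a difference of 0.17 ± 0.43 with overlapping groups. Lama5 differed by 0.31 ± 0.34, and Lamb2, the beta chain of synaptic and kidney laminins, by -0.01 ± 0.34. Lamb2 ranged from 71.9 to 133 CPM in vehicle and from 62.4 to 160 CPM in treated tumors, a spread wider than that of Lamc1. The sum of 8 endothelial markers was 38.7, 49.8 and 48.6 CPM in vehicle and 47.1, 133 and 71.0 CPM in treated tumors, with all 8 higher by their fitted values and 3 at an unadjusted p below 0.05. The sum of 7 fibroblast markers was 3013 to 3743 CPM in vehicle and 2912, 5369 and 3404 CPM in treated tumors. Treated replicate 2 held the highest endothelial and fibroblast sums. Among the treated tumors it also had the most Lama2 and Itga9 and the least Lamb1, Lama4, Itga1 and Itgb4. The part of these cell types in the laminin levels was not tested.

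**Figure D2:**
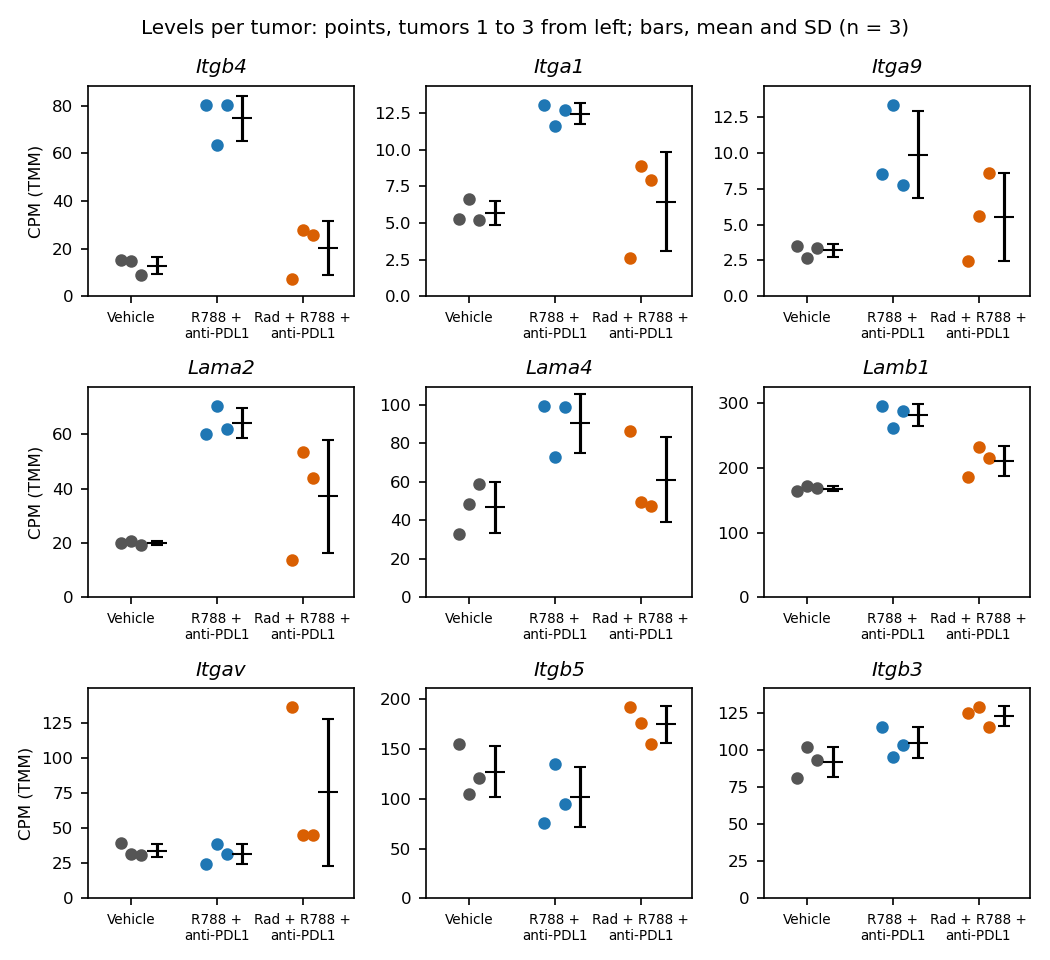
CPM (linear axis from 0) of 9 members in each tumor, with the group mean and SD (n = 3) beside the points. Itgb4, Itga1, Itga9, Lama2, Lama4 and Lamb1 show treated tumors above all vehicle tumors under R788 + anti-PDL1, and Itgav shows 1 irradiated tumor at 136 CPM.

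The makeup of laminin alpha chains differed between groups. Per kb, Lama5 took 74.5%, 57.9% and 52.9% of alpha chain RNA in vehicle, 49.8%, 50.6% and 45.6% under R788 + anti-PDL1, and 73.5%, 56.3% and 61.2% in the irradiated tumors. The drug pair tumors were below all 6 others. Lama2 took 6.74% to 8.18% in vehicle, 13.2% to 17.1% under R788 + anti-PDL1, and 2.42%, 17.3% and 13.8% in irradiated tumors 1 to 3. Lama4 took 17.7% to 36.1% in vehicle and 28.1% to 37.3% under the drug pair, which overlapped. These shares are descriptions of RNA per kb and were not tested.

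**Figure D3:**
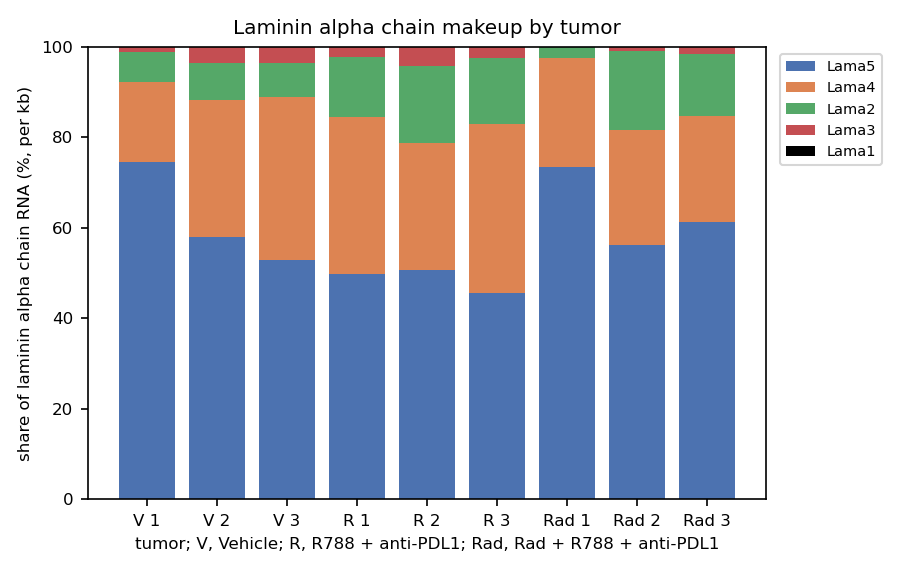
Share of each laminin alpha chain in the summed alpha chain RNA per kb (0 to 100%), for each tumor. Lama5 is the largest part of every bar, and the Lama2 part is widest in the 3 R788 + anti-PDL1 tumors and irradiated tumors 2 and 3.

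The leukocyte integrins stood at low levels and none was called. Of 7 tested under R788 + anti-PDL1, 6 were higher, with a median of 0.90, none had an unadjusted p below 0.05 with edgeR, and DESeq2 called none. Itgax and Itgb2 were higher without overlap with vehicle, against 13.6% of all genes, and none was lower without overlap, against 16.5%. Itgb2, the beta chain shared by CD11a, CD11b and CD11c (chr10:77530252-77565708), had 17.9, 16.5 and 13.2 CPM in vehicle and 28.9, 34.7 and 25.1 CPM in treated tumors, a difference of 0.90 ± 0.67 (adjusted p = 0.697 by edgeR). Fitted on the 6 libraries of this comparison alone, Itgb2 differed by 0.94 ± 0.19 with an adjusted p of 0.0419 by edgeR, a fit that called 3.84% of all genes.

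Itgam, the alpha M chain of the complement receptor CR3 (chr7:128062640-128118491), had 7.28, 13.3 and 19.1 CPM in vehicle and 10.7, 26.6 and 16.0 CPM in R788 + anti-PDL1, with overlapping groups and a difference of 0.43 ± 1.02 (adjusted p = 0.919 by edgeR). Itgax, the alpha X chain of dendritic cells and some macrophages, had 4.96, 4.75 and 5.58 CPM in vehicle and 8.85, 11.1 and 8.52 CPM in treated tumors, a difference of 0.90 ± 0.52. Counted with the leukocyte chains, Itga4, which pairs with beta 1 or beta 7 to bind VCAM1, would add another non-overlapping gene, with 2.43, 2.15 and 3.12 CPM against 3.43, 10.7 and 7.41 CPM. Itgal (CD11a), Itgad (CD11d), Itgae (CD103) and Itgb7 overlapped between these groups.

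The 7 integrins summed to 38.5, 41.9 and 44.7 CPM in vehicle and 56.6, 85.6 and 60.1 CPM under R788 + anti-PDL1, and 5 pan-leukocyte markers summed to 106 to 172 and 231 to 242 CPM. The sum of 11 macrophage markers was 701, 332 and 410 CPM in vehicle and 734, 716 and 738 CPM in treated tumors, with 10 of 11 higher and none at an unadjusted p below 0.05. The 9 markers of T and NK cells summed to 1.92 to 5.02 CPM in vehicle and 11.1 to 25.9 CPM in treated tumors. The 7 neutrophil markers summed to 4.52, 11.8 and 10.5 CPM in vehicle and 3.13, 4.70 and 4.22 CPM in treated tumors, ranges that overlapped, with Ly6g and Ngp at 0 in every library. S100a8 and S100a9 were lower with no overlap, by fitted differences of -3.002 ± 0.73 and -3.45 ± 0.74 (adjusted p = 0.110 and 0.0831 by edgeR). The other neutrophil markers tested were Csf3r and Cxcr2. Csf3r was lower with no overlap, by -0.75 ± 1.03, and Cxcr2 overlapped and differed by 0.32 ± 0.53 (adjusted p = 0.842 and 0.874 by edgeR). The part of cell numbers in the integrin levels was not tested.

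The same vehicle tumors served as reference for Rad + R788 + anti-PDL1, to ask what the full combination changed. Itgav and the beta chains Itgb3 and Itgb5 were higher than vehicle in all 3 irradiated tumors, Lamb1 was slightly higher, and the leukocyte chains split between tumors. With edgeR 0 members were called, against 0.0439% of all genes, and DESeq2 called 1 (Itgb7), against 3.85% of all genes. At an unadjusted p below 0.05, 4 members were higher (7.72% of all genes) and 0 lower (5.51%). The groups did not overlap for 5 that were higher (9.26% of all genes) and for 0 that were lower (11.2%). The median was 0.42 against 0.05 over all genes, and 24 of 32 members were higher.

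Itgav (chr2:83724397-83806916) had 39.4, 31.4 and 30.8 CPM in vehicle and 136, 44.8 and 45.2 CPM in the irradiated tumors. Every irradiated tumor was above vehicle, but 1 stood far above the other two. The difference was 1.15 ± 0.42 (adjusted p = 0.327 by edgeR), and 0.44 ± 0.21 without irradiated replicate 1. Itgb3 had 81.5, 102 and 93.3 CPM in vehicle and 125, 129 and 116 CPM in irradiated tumors, a difference of 0.42 ± 0.17 (adjusted p = 0.354) that was 0.44 ± 0.13 without that library. Itgb5 had 155, 105 and 121 CPM in vehicle and 192, 177 and 156 CPM in irradiated tumors, where the lowest irradiated tumor only just exceeded the highest vehicle tumor. Its difference was 0.46 ± 0.25 (adjusted p = 0.418 by edgeR), and 0.41 ± 0.25 without irradiated replicate 1.

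Itgb7, the gut-homing leukocyte beta chain (chr15:102215995-102231944), had 0.938, 0.538 and 1.09 CPM in vehicle and 7.37, 1.47 and 7.07 CPM in the irradiated tumors. All 3 were above vehicle and 2 were far above it, and the difference was 2.62 ± 0.77 (adjusted p = 0.265 by edgeR), or 2.36 ± 0.82 without irradiated replicate 1. Lamb1 had 187, 233 and 215 CPM in the irradiated tumors, all above vehicle and below the drug pair tumors, a difference from vehicle of 0.33 ± 0.16 (adjusted p = 0.400 by edgeR), or 0.44 ± 0.10 without that library. Lama2 had 13.9, 53.6 and 44.1 CPM, where tumor 1 was below vehicle and the other two well above it. It differed by 0.90 ± 0.40 with all tumors, and without irradiated replicate 1 by 1.32 ± 0.14 with an adjusted p of 0.0120 by edgeR.

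Irradiated replicate 1 decided several other values. Lamc1 had 62.4, 271 and 242 CPM in irradiated tumors 1 to 3, and Lama5 had 499, 207 and 232 CPM. Tumor 1 thus held the least Lamc1 and the most Lama5 of all 9 libraries. The differences from vehicle were -0.45 ± 0.43 for Lamc1 and 0.65 ± 0.34 for Lama5, and without this library 0.00 ± 0.11 and 0.17 ± 0.21. Without it, 13 members were higher at an unadjusted p below 0.05, against 9.45% of 16618 genes, and 1 (Lama2) was called, against 0.343%. The 13 included Itga5, Itga11, Itga9, Itgb4 and Itgax. Per kb, Itgb5 exceeded Itgb1 in tumor 1 only, at a ratio of 1.14 against 0.301 to 0.597 in the other 8.

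The leukocyte integrins of the irradiated tumors did not form a group. They summed to 22.9, 34.2 and 166 CPM, so that 2 tumors were below all vehicle tumors and 1 was far above. Itgam had 1.55, 6.64 and 68.1 CPM and Itgb2 had 5.08, 12.01 and 54.5 CPM. The macrophage marker sum was 576, 373 and 1903 CPM and the pan-leukocyte sum 118, 120 and 498 CPM in the same order. Itgam differed from vehicle by 0.95 ± 1.03 with all tumors, by -1.67 ± 0.67 without irradiated replicate 3 and by 1.54 ± 0.79 without irradiated replicate 1. The median over the 7 chains was 0.74, -0.59 and 1.106 in the same settings, so no direction can be given for leukocyte integrins after radiation.

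**Figure D4:**
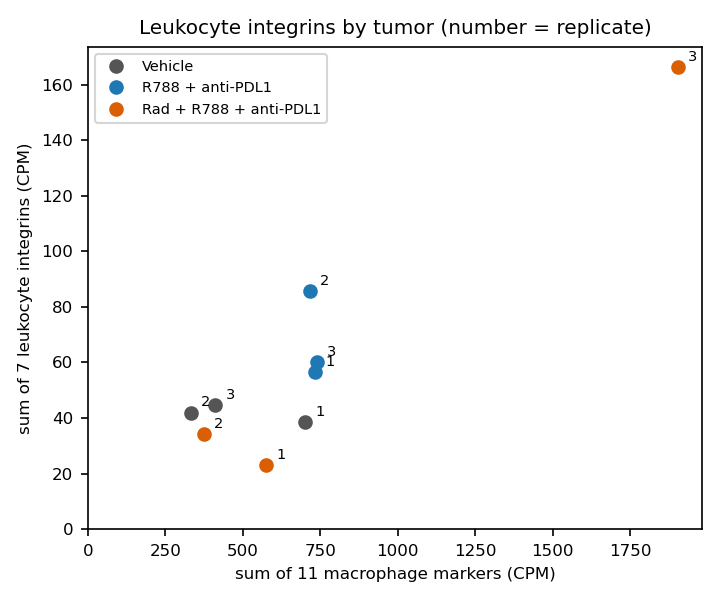
Summed CPM of the 7 leukocyte integrins (y axis) against summed CPM of 11 macrophage markers (x axis) in the 9 tumors, coloured by group and numbered by replicate. Irradiated tumor 3 stands at the upper right (1903 and 166 CPM), and irradiated tumors 1 and 2 have the lowest integrin sums.

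Radiation added to the drug pair was examined by setting the irradiated tumors beside those given R788 + anti-PDL1. This comparison shares tumors with both others, so the 3 are not independent. Itgb4, Itga1, Lama2, Lama3, Lamb1 and Lamc1 were lower in all 3 irradiated tumors, and Itgav and Itgb5 were higher. With edgeR 0 members were called, against 0.00628% of all genes, and DESeq2 called 1 (Itgb4), against 5.62%. At an unadjusted p below 0.05, 2 members were higher (11.7% of all genes) and 5 lower (6.65%), and the groups did not overlap for 2 higher (14.2%) and 6 lower (13.2%). The median was -0.14 against 0.04 over all genes.

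Itgb4 was lower in each irradiated tumor, at 7.29, 28.0 and 25.5 CPM against 63.5 to 80.2 CPM, a difference of -1.87 ± 0.45 (adjusted p = 0.179 by edgeR). Without irradiated replicate 1 the difference was -1.47 ± 0.24 (adjusted p = 0.0694). Itga1, at 2.58, 8.87 and 7.94 CPM, was below all drug pair tumors and differed by -0.94 ± 0.41 (adjusted p = 0.267 by edgeR), or by -0.56 ± 0.23 without that library. Lamb1 differed by -0.41 ± 0.16 (adjusted p = 0.246 by edgeR) with no overlap, or by -0.33 ± 0.10 without it. Lama3, with 10.7, 18.8 and 10.7 CPM under the drug pair, had 0, 3.35 and 5.11 CPM in the irradiated tumors, all lower, with a fitted difference of -2.22 ± 0.98 (adjusted p = 0.267 by edgeR), or -1.66 ± 0.52 without the library at 0. Lama2 differed by -0.79 ± 0.40 and Lamc1 by -0.62 ± 0.43 (adjusted p = 0.304 and 0.436 by edgeR), both with no overlap. Irradiated replicate 1 was the lowest library for both genes. Of 9 laminins tested, 8 were lower, with a median of -0.62, or -0.39 without irradiated replicate 1.

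Itgav and Itgb5 were the 2 members that were higher with no overlap. Itgav, at 24.4, 38.9 and 31.4 CPM under the drug pair, differed by 1.25 ± 0.42 (adjusted p = 0.223 by edgeR), or by 0.52 ± 0.21 without irradiated replicate 1. Itgb5, at 76.1, 135 and 95.2 CPM under the drug pair, was 0.78 ± 0.25 higher (adjusted p = 0.222 by edgeR), or 0.71 ± 0.25 without that library. Itgad was lower at an unadjusted p below 0.05 by -1.66 ± 0.66, although its groups overlapped. Without irradiated replicate 1, no leukocyte integrin was lower at that threshold, against 6.93% of all genes. Without irradiated replicate 3, 4 of the 7 were, against 9.17%.

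**Figure D5:**
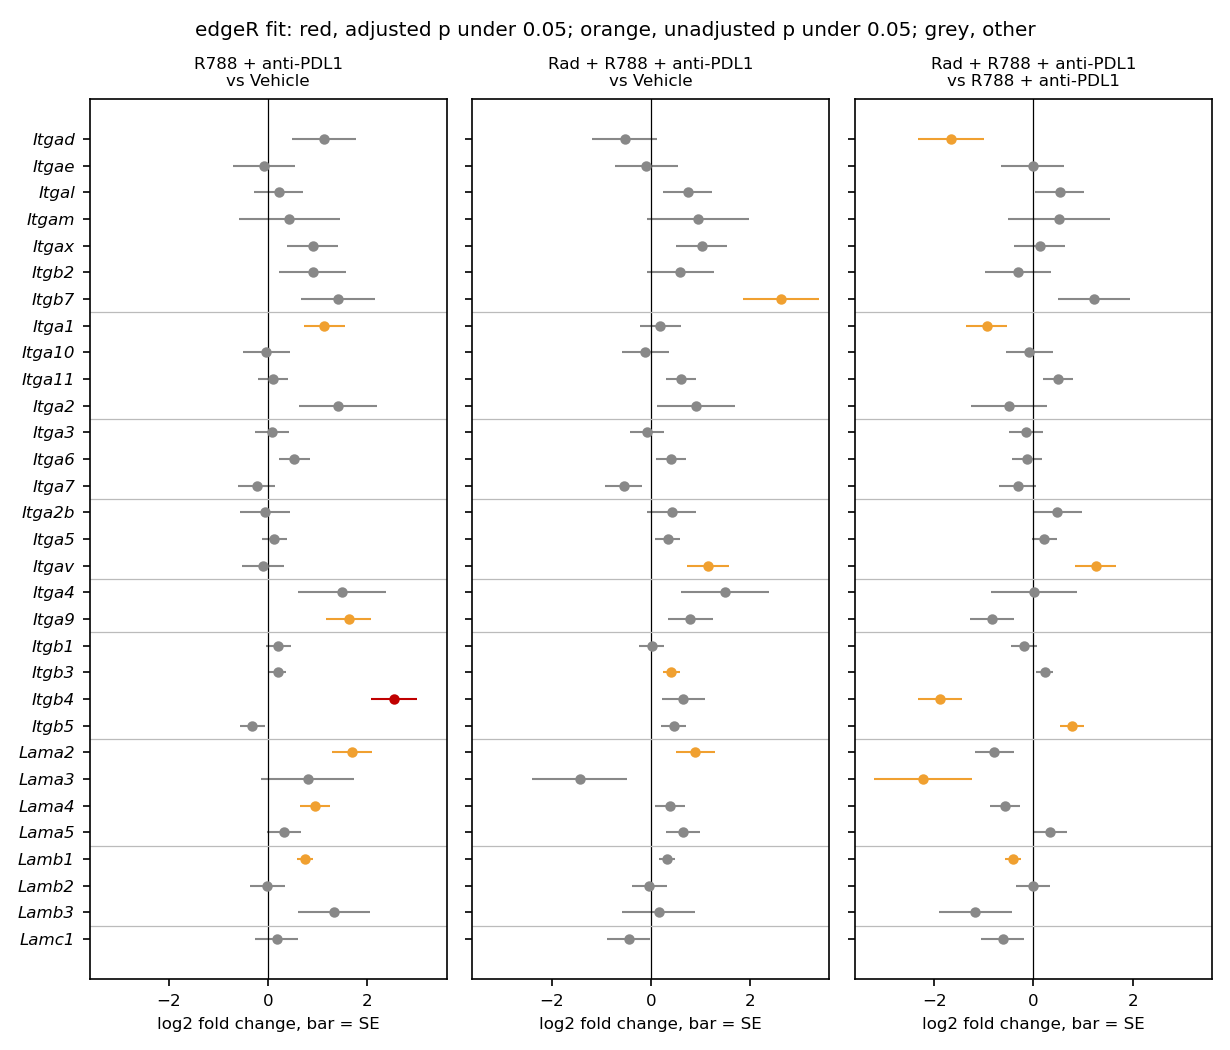
Log2 fold change with SE of tested members in the 3 comparisons, from the edgeR fit on all 9 tumors. Itgb4 under R788 + anti-PDL1 is the only red point (adjusted p below 0.05), 5 of the other members drawn are orange in that panel, and the panel for radiation added to the drug pair shows 5 orange points to the left and 2 to the right.

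Of the 37 members, 5 were too low to be tested. Itgb6, the epithelial partner of alpha v, had no count in vehicle and 0.132, 0.229 and 0.450 CPM under R788 + anti-PDL1, which was at least 1.75-fold higher than the mean level that 3 counts per vehicle library allow. Itga8, Itgb8, Lama1 and Lamc3 stayed at or below 0.705 CPM in every library. Lama1, the embryonic laminin alpha chain, had no count in the irradiated tumors and at most 0.287 CPM elsewhere.

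Ligands and adaptors of these receptors were followed in 4 lists. Over all genes, 0.678% were called under R788 + anti-PDL1 against vehicle. Of 10 matrix integrin ligands tested, 2 were called in this comparison and moved in opposite directions. Npnt, the basement membrane ligand of integrin alpha 8 beta 1, had 12.4, 3.72 and 5.47 CPM in vehicle and 55.2, 35.8 and 52.4 CPM in treated tumors and rose by 2.74 ± 0.48 (adjusted p = 0.0412 by edgeR). Cyr61, a matricellular ligand of alpha v integrins, had 35.5, 40.3 and 45.6 CPM in vehicle and 16.4, 13.7 and 13.9 CPM in treated tumors and fell by 1.47 ± 0.20 on the log2 scale (adjusted p = 0.0375). Neither gene overlapped between the groups. Of 21 integrin adaptors and focal adhesion genes tested, 10 were higher and 11 lower, with a median of -0.01 and none called. Of 9 leukocyte integrin ligands, 7 were higher, and of 15 basement membrane partners and laminin receptors, 8 were higher, with none called in either list.

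In the irradiated tumors Cyr61 had 20.4, 20.3 and 16.4 CPM, all below vehicle, a difference of -1.09 ± 0.20 (adjusted p = 0.0960 by edgeR). Without irradiated replicate 1, Cyr61 was called at -1.112 ± 0.18 (adjusted p = 0.0473), in a fit that called 0.343% of all genes. The adaptor kinase gene Ptk2b was 1.08 ± 0.32 higher than vehicle (adjusted p = 0.265), or 1.28 ± 0.30 without that library. Against R788 + anti-PDL1, the laminin-binding nidogen gene Nid1 had 2.87, 8.67 and 12.2 CPM against 17.7, 50.7 and 28.3 CPM and differed by -2.02 ± 0.54 (adjusted p = 0.203 by edgeR), or by -1.62 ± 0.45 without irradiated replicate 1. Npnt differed by -1.54 ± 0.46 (adjusted p = 0.222), or by -1.25 ± 0.44 without that library, in the same comparison, with all irradiated tumors below the drug pair tumors. No member of the 4 lists was called by edgeR in either comparison that involves radiation when all 9 tumors were fitted. Among all genes, those fits called 0.0439% against vehicle and 0.00628% against R788 + anti-PDL1.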

How the data were processed

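Poly-A RNA-seq of 9 whole NB9464 tumors was analysed, 3 per group, grouped by the treatment label. Per the paper's methods and the submitters' processing notes, the authors aligned reads to mm10 with STAR 2.6.1d and quantified them with Salmon 1.4.0. The authors deposited estimated counts per gene symbol, which are whole numbers with no normalization, and were used as deposited. Total counts per library were 18276683 to 23397886. The sources conflict on the RNA source named in the extraction text (macrophages, against whole tumor as tissue) and on the sequencer and read layout.

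Genes passing filterByExpr (minimum count 10) were fitted with TMM normalization and the robust quasi-likelihood F test in edgeR 4.0.16 (R 4.3.3), all 9 libraries in 1 fit, no covariate, two-sided, Benjamini-Hochberg adjustment over all genes tested. The script was tested on simulated data with known changes. The 3 members Itgam, Itgb1 and Lamb1, the 3 integrins and 3 laminins highest per kb in vehicle, and members with an adjusted p below 0.05, or an unadjusted p below 0.05 without overlap of the groups, were named. The other members were summarised, and companion genes were named where called, otherwise the 2 with the lowest p in a comparison. Itga6, Itgax, Itgb2, Itga4, Lama3, Lamb3, Lama5 and the other members given with values beyond this rule were chosen after their values were seen. Results of some single genes are not reported here by name, and the counts include them. Members, classes and lists were chosen with earlier results of these data known.

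Coordinates and lengths are from GENCODE M21 (GRCm38), in which all 37 members had 1 identifier. Promoters are from RefSeq (GRCm38.p6). Alternatives were DESeq2 1.42.0, limma 3.58.1 voom with and without sample quality weights, 2 other normalizations, 2 filters, only the 6 libraries compared, a replicate block, each library left out, median transcript lengths, and Itga4 counted as a leukocyte chain. Nothing in the labels says whether tumors were pooled, and p-values measure the spread between these tumors. An exact permutation test of 3 against 3 cannot fall below 0.1.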

Additional observations from a re-analysis of the deposited data

How the results depend on the processing

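Members called under R788 + anti-PDL1 against vehicle numbered 1 with edgeR, 4 with DESeq2, 13 with voom and sample quality weights, 6 with only the 6 libraries compared, and 0 with the replicate block. With any single library left out, 0 were called, in fits that called 0 to 75 genes in all. For Rad + R788 + anti-PDL1 against vehicle, 0 became 1 with DESeq2 and 8 with quality weights, and 0 to 1 when single libraries were left out, the 1 (Lama2) being without irradiated replicate 1. With radiation added to the drug pair, 0 became 1 with DESeq2 and 9 with quality weights. Over all genes, edgeR called 108, 7 and 1 in these comparisons, DESeq2 770, 611 and 822, voom 111, 12 and 8, the fits on the 6 libraries compared 594, 1 and 0, and quality weights 4834, 1992 and 3080. The cause was not tested.

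Replicate numbers are shared between groups, and same-numbered tumors correlated at -0.05 to 0.29 in their deviations from group means. For Rad + R788 + anti-PDL1 against vehicle, the same-numbered values were 0.29, 0.26 and 0.07. Differently numbered tumors of these groups ran from -0.29 to 0.17. Deviations within a group of 3 offset one another, so these values cannot decide whether the numbers mark pairs. The main fit did not pair them. With the replicate block Itgb4 had 2.54 (adjusted p = 0.0969) under R788 + anti-PDL1, and 0, 3 and 0 genes were called in the 3 comparisons.

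Itgam under R788 + anti-PDL1 was -0.068 with quality weights. For Rad + R788 + anti-PDL1 against vehicle, Itgam was -0.24 with voom and -1.67 to 1.54 when single libraries were left out, and Itgb1 was -0.044 with voom, -0.027 with the block and -0.13 to 0.28 when single libraries were left out. Set against the drug pair, Itgam was -0.68 with voom, -0.61 with the block and -2.10 to 1.09 with single libraries left out, and Itgb1 was 0.14 with quality weights and -0.34 to 0.047 with single libraries left out. Other members were followed only in comparisons with an adjusted p below 0.05, or an unadjusted p below 0.05 without overlap, by edgeR. In those comparisons they kept their direction in all alternatives run, as did Lamb1 in every comparison. The direction of the remaining members was not followed in this way. The depth limits members below about 0.2 CPM, which cannot be ordered.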

Other observations

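Symbols that begin like a member but encode other proteins were left out of the member counts. Among them, Itgb1bp1 was counted in the list of integrin adaptors and focal adhesion genes. Itgbl1, an integrin beta-like gene, had 0.441, 0.493 and 0.0547 CPM in vehicle, 0.705, 3.89 and 2.25 CPM under R788 + anti-PDL1, and 1.62, 2.18 and 2.55 CPM in the irradiated tumors, so that both treated groups lay above vehicle. Itgb3bp, a centromere protein gene, had 15.3 to 19.0 CPM in the 6 tumors without radiation and 29.9, 17.2 and 17.8 CPM in the irradiated tumors. Itgb1bp1 had 28.2, 19.1 and 20.5 CPM in vehicle, 17.0, 15.7 and 14.7 CPM under R788 + anti-PDL1 and 43.7, 23.4 and 21.6 CPM in the irradiated tumors, where tumor 1 was again the highest. Itgb2l had no count in any library.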
